A study of Mus musculus with 16 samples.

Results

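The 8 genes described here encode the enzymes that build and methylate the mRNA cap in mouse embryonic stem cells (ESCs), together with the enzymes that supply the methyl donor and remove its product. They were chosen by name and are Ramac (also named Fam103a1), Rnmt, Rngtt, Cmtr1, Cmtr2, Pcif1, Ahcy and Mat2a. All 8 were found by symbol among the 46983 genes of the count table, and all 8 were among the 12805 genes that had enough reads to be tested. Every library came from 1 line, the 46C ESC line of the 129Ola strain, which expresses a Sox1-GFP reporter and was kept in medium with LIF. Control cells received a non-targeting siRNA and treated cells a siRNA against RAM, the protein encoded by Ramac, and both were collected at 48 hr, following a short incubation in cycloheximide, which holds ribosomes on mRNA. From each culture, 10% of the cytoplasmic extract was kept as input, and fractions 17 to 22 of a sucrose gradient were pooled as polysomes. The 4 groups (input control, input RAM siRNA, polysome control and polysome RAM siRNA) hold 4 libraries each, 16 in all.

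Capping begins on nascent RNA. RNGTT, the capping enzyme, removes a phosphate from the start of the transcript and adds an inverted guanosine. RNMT then methylates that guanosine, and RAM binds RNMT and activates it. CMTR1 and CMTR2 methylate the ribose of the first and the second transcribed nucleotide, and PCIF1 methylates the base when the first nucleotide is adenosine. All of these methyltransferases take the methyl group from S-adenosylmethionine (SAM), which MAT2A makes from methionine, and all release S-adenosylhomocysteine, which inhibits methyltransferases and is broken down by AHCY. The cap recruits the proteins that export and translate mRNA, and RAM siRNA was used in this study to ask what ESCs express when RAM is low.

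Libraries held between 16647523 and 20147833 counts. All 7 ESC markers examined, among them Pou5f1, Nanog and Tdgf1, were above 1 CPM (a gene's reads scaled to the size of its library) in all 4 groups. Their summed level was between 3903 and 4240 CPM in input control libraries and between 3316 and 3862 in input RAM siRNA libraries. Tdgf1 alone averaged 2118 CPM in input control and 1881 CPM in input RAM siRNA. The sum therefore does not show whether each marker was lower. The 5 neural progenitor markers summed to between 71.2 and 83.2 CPM in input control and to between 77.2 and 91.4 in input RAM siRNA, with Neurog2 at 0 in every input control library. The 5 primitive endoderm markers reached at most 24.8 CPM in sum in input, the 3 trophoblast markers at most 15.97 CPM and the 5 fibroblast markers at most 11.2 CPM. Whether the lower ESC marker sum has a part in the differences given here was not tested, and in bulk RNA fewer cells of one type and less RNA per cell cannot be told apart.

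Ramac, the target of the siRNA, was examined first. The gene (ENSMUSG00000038646) lies at chr7:81762925-81769491 of GRCm38. In input, the 4 control libraries held 201, 202, 197 and 206 Ramac reads, or 10.6, 10.1, 10.7 and 11.5 CPM, and the RAM siRNA libraries held 57, 46, 58 and 56 reads, or 3.09, 2.65, 3.09 and 3.15 CPM. The groups did not overlap, and each treated library kept between 26.3% and 29.3% of the Ramac level of the control library with the same replicate number. Ramac fell in input by 1.84 on the log2 scale (edgeR's quasi-likelihood test, adjusted p = 7.24e-06), with a standard error (SE) of 0.11. In polysomes, control libraries held 122, 130, 156 and 256 reads (6.59, 6.87, 8.78 and 14.5 CPM) and RAM siRNA libraries 16, 5, 45 and 44 reads (0.962, 0.286, 2.25 and 2.60 CPM). These groups did not overlap either, but replicates spread far more than in input: the treated libraries kept 14.6%, 4.16%, 25.6% and 17.9% of their controls. The polysome difference of -2.52 (SE 0.55) did not pass the test without a term for the replicate (adjusted p = 0.128), and it did pass with one, at -2.59 and an adjusted p of 2.36e-05. The 5 reads of replicate 2 carry an exact Poisson interval of 1.62 to 11.7 reads, which covers counting error only. Without that library, the polysome difference was -2.17 (adjusted p = 0.0701). Part of the Ramac transcript is not unique in the genome: 36.0% of its 75-base windows also occur in exons of other genes, mainly Olfr482, which held 1 read in all 16 libraries, and the pseudogene Gm9830, which held 12. The copy with the most reads, Gm10767, shares 10.2% of the Ramac windows and held 83 reads in all, with 16, 13, 10 and 7 in input control and 5, 7, 11 and 4 in input RAM siRNA libraries. These and the other copies given here were named after their values were seen.

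**Figure D1:**
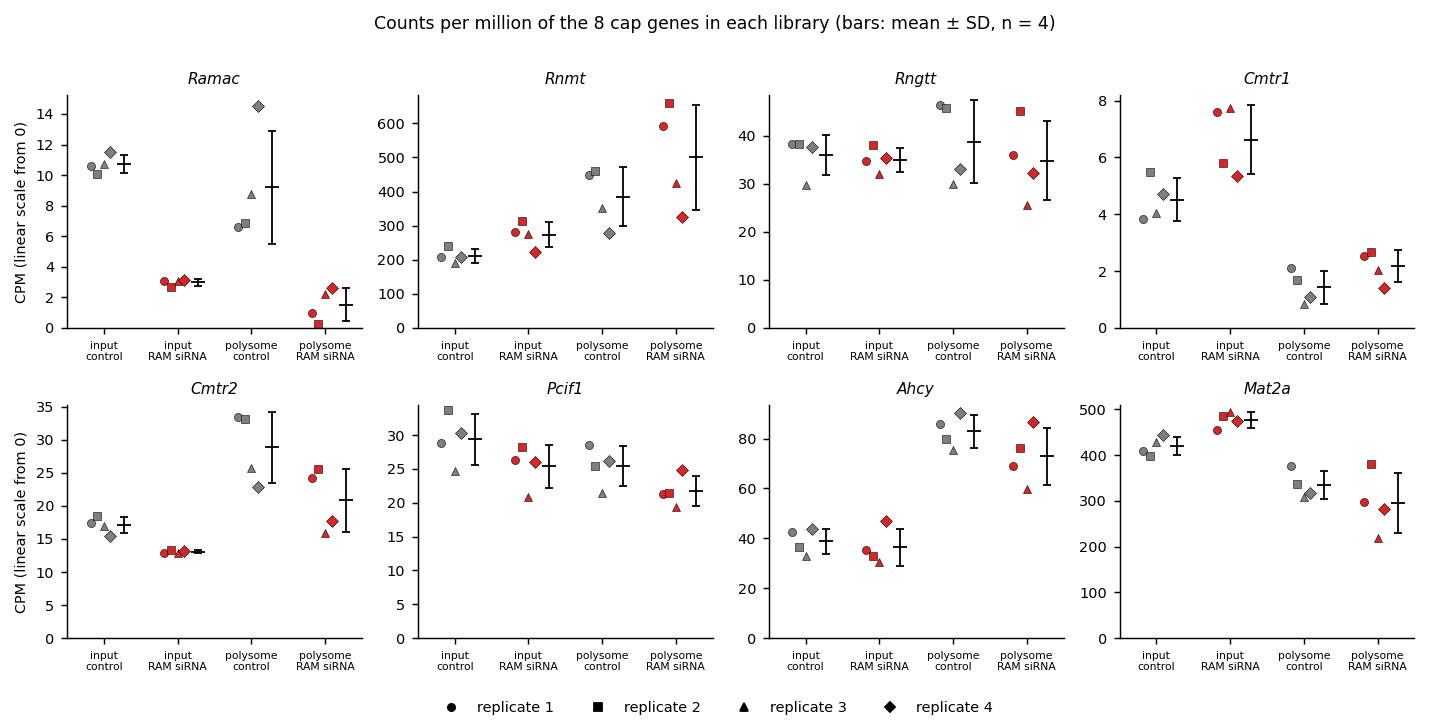
Level in CPM of each of the 8 genes in the 16 libraries, with 1 panel per gene and linear axes from 0. Points are libraries, shaped by replicate number, grey for control and red for RAM siRNA, and the bars are the mean and SD of 4 libraries. Ramac is below its control range in both fractions, Cmtr2 is below it and Mat2a above it in input, and the polysome groups spread more than the input groups for most genes.

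Of the other 7 genes, 3 passed the test in input and 4 did not. With Ramac, 2 genes were lower (Ramac and Cmtr2) and 2 higher (Rnmt and Cmtr1) at an adjusted p under 0.05, 4 of 8, where 12.9% of all genes tested were called (5.94% lower and 6.95% higher). With the replicate number as a term (the replicate block), 3 were lower and 3 higher, and 39.3% of all genes were called (19.0% lower and 20.3% higher). The median log2 difference of the 8 genes in input was -0.07, and -0.04 without Ramac, against 0.00 over all genes tested. For 3 of the 8 genes (Ramac, Cmtr2 and Mat2a) the input groups did not overlap, as was the case for 18.0% of all genes. In polysomes 0 of the 8 passed without the block, where 3 of the 12805 genes passed (0.0234%), and 1 of the 8 had an unadjusted p under 0.05, as had 1152 of all genes (9.00%). DESeq2 called 1, Ramac. With the block, 2 were lower (Ramac and Cmtr2) and 1 higher (Rnmt) in polysomes, where 14.6% of all genes were called (4.97% lower and 9.68% higher). Ramac alone had groups that did not overlap in polysomes, as had 6.57% of all genes. The median of the 8 was -0.14 in polysomes, against 0.06 over all genes.

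Rngtt, the enzyme that adds the guanosine, differed by less than the replicates spread. The gene (ENSMUSG00000028274) lies at chr4:33310311-33502614. Its input levels were 38.3, 38.3, 29.7 and 37.6 CPM in control and 34.8, 38.0, 32.0 and 35.3 CPM in RAM siRNA libraries. The treated libraries all lay inside the control range, whose low end was 1 library, replicate 3 at 29.7 CPM. The other controls were at 37.6 to 38.3 CPM, and treated replicates 1, 3 and 4 were below them. The difference was -0.04 on the log2 scale, with a 95% interval of -0.24 to 0.16 (adjusted p = 0.818). Rngtt was between 29.9 and 46.5 CPM in polysome control and between 25.7 and 45.2 CPM in polysome RAM siRNA libraries, and the difference there was -0.11, with an interval of -0.57 to 0.35.

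Rnmt, the methyltransferase that RAM activates, was higher in RAM siRNA input. The gene (ENSMUSG00000009535) lies at chr18:68300355-68324852. In input it was at 206.7, 241.2, 191.7 and 207.0 CPM in control and at 280.5, 315.1, 275.6 and 224.1 CPM in RAM siRNA libraries. Each treated library was above the control of its own number, and only replicate 4 of the treated group, the lowest, reached into the control range. Rnmt rose by 0.37 on the log2 scale, or 1.29-fold (SE 0.11, adjusted p = 0.0389, and 1.61e-05 with the replicate block). The call without the block was lost when any 1 of 6 libraries was left out (control replicates 1, 3 and 4 and treated replicates 1, 2 and 3), with adjusted p-values up to 0.118 and log2 changes between 0.30 and 0.46 over all 8 omissions. In polysomes Rnmt was at 448.6, 460.5, 350.5 and 277.4 CPM in control and at 593.3, 659.4, 424.5 and 324.0 CPM in RAM siRNA libraries. Here too each treated library was above its own control while the groups overlapped. The polysome difference was 0.43 without the block (adjusted p = 0.717) and 0.40 with it (adjusted p = 0.0270).

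The balance between the transcripts of RNMT and its activator was also taken as a ratio within each library, which needs no scaling between libraries. It is a ratio of RNA reads and not of protein. Its absolute size depends on the exon length used and on sequence shared with other genes, in 36.0% of Ramac and 0% of Rnmt windows. Reads per kb of exon gave Rnmt to Ramac ratios of 4.64, 5.68, 4.24 and 4.26 in input control, and 21.5, 28.2, 21.1 and 16.9 in input RAM siRNA. The groups lay far apart: the mean went from 4.70 ± 0.676 to 21.9 ± 4.67 (SD, n = 4 each), a difference of 2.21 on the log2 scale (two-sided exact permutation test over libraries, p = 0.0286, the smallest that 4 against 4 allow). In polysomes the ratio was 16.1, 15.9, 9.47 and 4.53 in control and 146.2, 546.9, 44.8 and 29.5 in RAM siRNA libraries. These groups did not overlap, and the log2 difference was 3.31 (exact permutation p = 0.0286). Without treated replicate 2, which had the 5 Ramac reads, it was 2.50, and without any 1 control library the exact permutation p was 0.0571. Ramac, the gene the siRNA was made against, differed by -1.84 and -2.52 on its own, and Rnmt by 0.37 and 0.43. When same-numbered libraries are paired, the exact test cannot go below 0.125, the value it gave in both fractions.

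**Figure D2:**
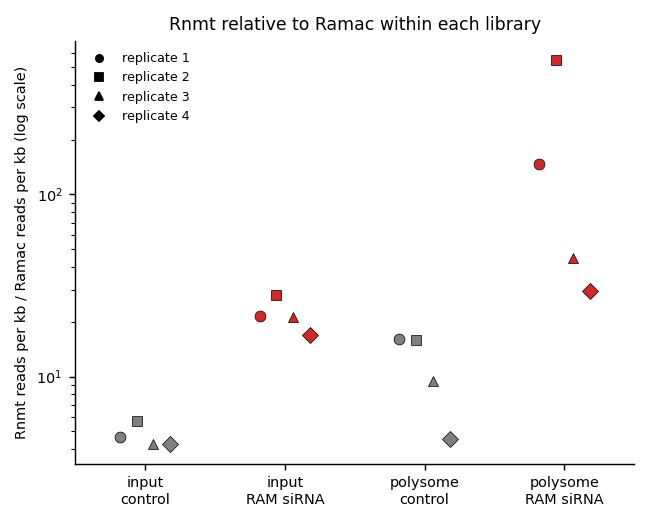
Rnmt reads per kb of exon divided by Ramac reads per kb of exon in each of the 16 libraries, on a log axis. Grey points are control and red points RAM siRNA libraries, shaped by replicate number. Within each fraction every RAM siRNA library is above every control library, and the polysome libraries of replicates 1 and 2 are above those of replicates 3 and 4 in both groups.

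The enzymes that methylate transcribed nucleotides did not move together. Cmtr2 (ENSMUSG00000046441, chr8:110215665-110224486), which methylates the second nucleotide, was at 17.4, 18.5, 16.9 and 15.5 CPM in input control and at 12.8, 13.4, 12.9 and 13.1 CPM in input RAM siRNA libraries. Every treated library was below every control library. Cmtr2 fell by 0.39 on the log2 scale (SE 0.09, adjusted p = 0.0117), and this call held whichever library was left out, with adjusted p-values of at most 0.0439. In polysomes it was at 33.5, 33.2, 25.8 and 22.9 CPM in control and at 24.2, 25.6, 15.9 and 17.7 CPM in RAM siRNA libraries. Each treated library was again below its own control, but the groups overlapped. The polysome difference was -0.42 without the block (adjusted p = 0.571) and -0.43 with it (adjusted p = 0.0170).

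Cmtr1 (ENSMUSG00000024019, chr17:29660595-29705979), which methylates the first nucleotide, went the other way in input. It held only 73, 110, 74 and 84 reads in input control libraries (3.84, 5.49, 4.03 and 4.71 CPM) and 140, 101, 145 and 95 in input RAM siRNA libraries (7.60, 5.82, 7.74 and 5.35 CPM). All 4 treated libraries were above their own controls, and replicate 4 of the treated group was inside the control range. Cmtr1 rose by 0.55 on the log2 scale, or 1.47-fold (SE 0.16, adjusted p = 0.0455, and 0.00429 with the block). The call without the block was lost when any 1 of 6 libraries was left out (control replicates 1, 3 and 4 and treated replicates 1, 2 and 3), with adjusted p-values up to 0.138. In polysomes Cmtr1 held between 15 and 39 reads in control and between 24 and 47 in RAM siRNA libraries, a difference of 0.65 with an interval of -0.06 to 1.36 (adjusted p = 0.602).

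The level of Cmtr1 is uncertain because of how its locus is annotated. Of its 75-base exon windows, 69.3% also belong to another gene: 32.5% to genes on the same strand, chiefly Gm28043, a longer model that runs through the locus, and 38.3% to Ccdc167 on the opposite strand. In the longest coding transcript of Cmtr1 the shared part was 86.8%. A read that fits more than one gene is usually left out of such counts, and the setting used was not given in the sources used here. Gm28043 was at 3.21 CPM in input control and 3.41 CPM in input RAM siRNA, and at 0.136 CPM in polysome control. With the reads of Gm28043 added to those of Cmtr1, the input difference was 0.38 and no longer passed (adjusted p = 0.109). Ccdc167 differed by -0.34 in input (adjusted p = 0.0830, and 0.0207 with the block). The 3′ UTR of Cmtr1 also holds the 8 bases TTGCTCAA, found on the sense strand of 2.72% of annotated 3′ UTRs and searched because genes that hold it were known to have changed in these libraries. The 6 bases TGCTCA inside it were in 39.2% of these 3′ UTRs and in those of 5 of the 8 genes. These were Ramac and Pcif1, which were lower in input, and Rnmt, Cmtr1 and Mat2a, which were higher, not all of them past the threshold. Of tested genes with TTGCTCAA in the 3′ UTR, 16.02% were called higher with RAM siRNA in input, against 6.86% without it. For TGCTCA these shares were 8.65% and 5.89%. Both motifs were chosen with changes in these same libraries known, so the shares are no independent support for a part of either. ACTATC and ACTATCA were also searched, and 0 of the 8 genes hold either. The shares called higher, with and without the motif, were 4.61% and 7.69% for ACTATC and 3.60% and 7.39% for ACTATCA. Median log2 differences in input, with and without the motif, were -0.053 and 0.0099 for ACTATC and -0.10 and 0.0055 for ACTATCA. They were 0.078 and -0.0036 for TTGCTCAA and 0.014 and -0.012 for TGCTCA. The part of these motifs in the differences of the 8 genes was not tested.

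Pcif1 (ENSMUSG00000039849, chr2:164879304-164894454), the adenosine methyltransferase, was at 28.8, 33.7, 24.6 and 30.3 CPM in input control and at 26.3, 28.3, 20.9 and 25.9 CPM in input RAM siRNA libraries. Each treated library was below its own control, and replicate 2 was the highest and replicate 3 the lowest library in both groups, which overlapped. The difference of -0.21 (interval -0.45 to 0.03) did not pass without the block (adjusted p = 0.236) and passed with it (adjusted p = 0.00667). In polysomes Pcif1 was between 21.4 and 28.6 CPM in control and between 19.4 and 24.8 CPM in RAM siRNA libraries, a difference of -0.17 (interval -0.50 to 0.15). Its last exons overlap Zfp335 on the opposite strand over 8.35% of its windows.

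**Figure D3:**
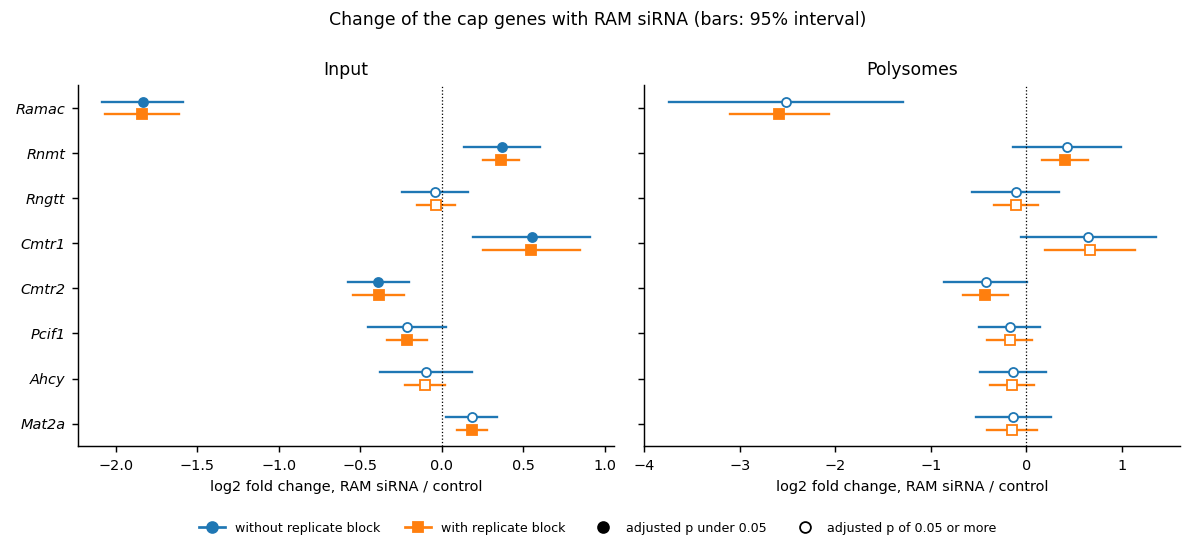
Log2 fold change of each gene with RAM siRNA in input (left) and polysomes (right), with 95% intervals as bars. Circles are without and squares with the replicate block, filled where the adjusted p was under 0.05. Ramac is lowest in both panels, Rnmt and Cmtr1 lie above 0 and Cmtr2 below 0 in both, and the intervals are narrower with the block.

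Mat2a, which makes SAM in cells other than hepatocytes, was the most abundant of the 8 genes per length of exon in input. The gene (ENSMUSG00000053907) lies at chr6:72432799-72439558. Its mRNA is known for a set of hairpins in the 3′ UTR that METTL16 binds and methylates, by which splicing and stability of the mRNA follow the SAM supply. The nonamers of these hairpins are TACAGAGAA and TACAGAAAA, and their 6 occurrences in the 1494-base 3′ UTR of Mat2a are printed here from GRCm38, minus strand, with the nonamer in capitals and 10 bases on each side, since no other gene on the list holds one.
Mat2a site 1, chr6:72434235-72434263: tggcgtaggtTACAGAGAAgccttcaagc
Mat2a site 2, chr6:72433451-72433479: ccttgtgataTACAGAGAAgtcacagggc
Mat2a site 3, chr6:72433272-72433300: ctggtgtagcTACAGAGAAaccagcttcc
Mat2a site 4, chr6:72433157-72433185: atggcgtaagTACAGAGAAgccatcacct
Mat2a site 5, chr6:72433046-72433074: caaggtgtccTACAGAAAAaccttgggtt
Mat2a site 6, chr6:72432938-72432966: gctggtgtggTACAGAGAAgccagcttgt
Only the sense strand was searched, and the nonamers do not overlap each other. In the 3′ UTRs of 21193 genes, 2.85% held TACAGAGAA, 2.26% held TACAGAAAA and 4.97% held either. Mat2a was the only gene with 6, and the next highest number was 4.

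In input, Mat2a was at 408.8, 399.1, 427.8 and 445.2 CPM in control and at 454.9, 486.1, 495.4 and 473.8 CPM in RAM siRNA libraries. Every treated library was above every control library, though by little. The difference was 0.18 on the log2 scale (interval 0.03 to 0.34), which did not pass without the block (adjusted p = 0.112) and passed with it (adjusted p = 0.00236). In polysomes Mat2a was at 376.7, 336.0, 307.8 and 317.3 CPM in control and at 298.5, 380.3, 219.6 and 283.0 CPM in RAM siRNA libraries. Here 3 of the 4 treated libraries were below their own control and replicate 2 was above it, and the groups overlapped. The difference was -0.14, with an interval of -0.53 to 0.26 (adjusted p = 0.958). Particl, a model on the opposite strand, covers 8.89% of the Mat2a windows and held 246 reads in all 16 libraries, too few to be tested.

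Ahcy (ENSMUSG00000027597, chr2:155059310-155074497), the hydrolase of S-adenosylhomocysteine, did not pass any test of RAM siRNA. In input it was at 42.4, 36.4, 33.1 and 43.8 CPM in control and at 35.2, 33.0, 30.5 and 47.1 CPM in RAM siRNA libraries. Replicates 1 to 3 were below their own controls and replicate 4 above, and the groups overlapped. The input difference was -0.10 (interval -0.38 to 0.19, adjusted p = 0.681) and the polysome difference was -0.14 (interval -0.48 to 0.20). Ahcy shares its sequence with retrocopies: 65.9% of its windows also occur in exons elsewhere in the genome, and 62.5% occur in Gm4737 on chromosome 16. Gm4737 held 12832 reads over the 16 libraries and was at 29.5 CPM in input control and 26.2 CPM in input RAM siRNA, near the level of Ahcy itself. Over the shared sequence, reads of the gene and of its copy cannot be told apart. With both summed, the input difference was -0.13 (adjusted p = 0.576), fitted without the block only. Gm4737 alone differed by -0.17 in input (adjusted p = 0.478, and 0.0285 with the block).

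Levels were compared between genes only per kb of exon, and cover a wide range. In input control the order was Mat2a (93.7 ± 4.56 CPM per kb, SD, n = 4), Rnmt (28.8 ± 2.85), Ahcy (13.9 ± 1.79), Ramac (6.16 ± 0.348), Rngtt (5.07 ± 0.592), Pcif1 (4.48 ± 0.574), Cmtr2 (4.15 ± 0.301) and Cmtr1 (0.465 ± 0.0768). The libraries of Rngtt and Pcif1 overlapped, as did those of Pcif1 and Cmtr2, and the other neighbours did not. With the longest coding transcript as the length, Ramac and Rngtt changed places. In input RAM siRNA, Ramac was at 1.72 ± 0.133 CPM per kb and lay below Cmtr2 (3.17 ± 0.0605). In polysome control Mat2a (74.6 ± 6.81) was still above Rnmt (52.4 ± 11.8), with no overlap. In polysome RAM siRNA, Rnmt (68.2 ± 20.9) and Mat2a (65.8 ± 14.7) overlapped.

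The level in polysomes relative to input was described next, first in control cells alone. The CPM in polysomes was divided by the CPM in the input of the same replicate number. The scaling between libraries sets this ratio near 1 for most genes, so a value shows where a gene stands among them and not the share of its mRNA on polysomes. Ahcy had the highest mean ratio, at 2.03, 2.19, 2.28 and 2.06 in the 4 control cultures. Rnmt (2.17, 1.91, 1.83 and 1.34) and Cmtr2 (1.93, 1.79, 1.53 and 1.48) were also above 1 in every control culture. Mat2a (0.921, 0.842, 0.719 and 0.713) and Cmtr1 (0.549, 0.308, 0.209 and 0.229) were below 1 in every control culture. Pcif1 was below 1 too, at between 0.755 and 0.993, and Rngtt and Ramac lay on both sides of 1. By edgeR, Ahcy (log2 difference 1.05, adjusted p = 2.23e-05), Rnmt (0.82, 9.27e-04) and Cmtr2 (0.72, 8.02e-04) were higher in polysomes and Cmtr1 (-1.69, 1.37e-04) and Mat2a (-0.37, 0.0114) were lower, 5 of 8 where 67.4% of all genes passed (33.1% higher and 34.3% lower). The call of Mat2a was lost in 4 of 18 alternatives: without the filter on low counts (-0.23, adjusted p = 0.210, where the median of all genes was -0.34), with all libraries in one fit (-0.33, adjusted p = 0.0564), in replicates 3 and 4 alone (-0.48, adjusted p = 0.0593) and at a threshold of 0.01. Ramac differed by -0.26 (adjusted p = 0.342). That value depended on the replicates: in replicates 1 and 2 alone it was -0.68 (adjusted p = 0.00400), in replicates 3 and 4 alone 0.06, and without polysome control replicate 4 it was -0.58 (adjusted p = 0.00426). With the reads of Gm28043 added, the difference of Cmtr1 was -2.33.

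**Figure D4:**
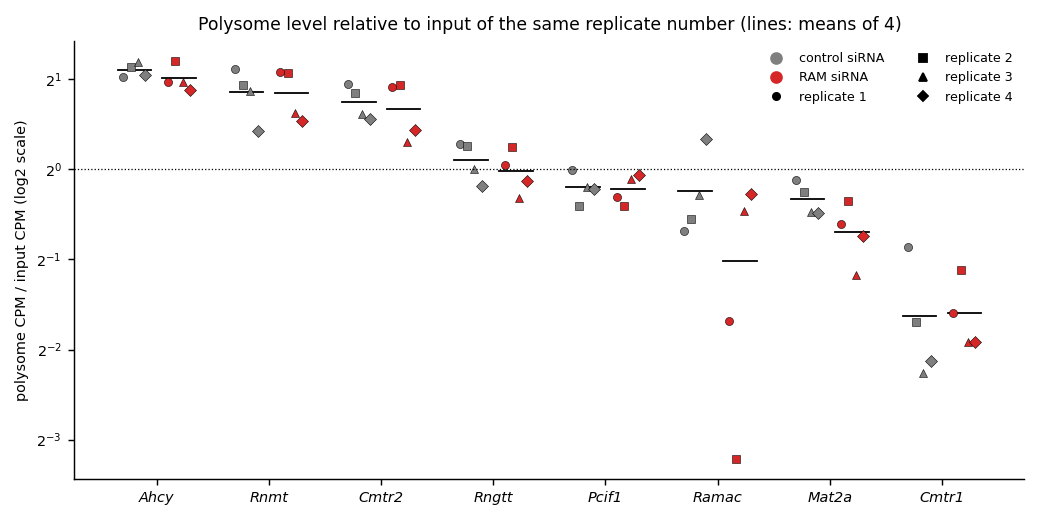
Polysome CPM divided by input CPM of the same replicate number for each gene, on a log2 axis, with genes ordered by their control mean. Grey points are control and red points RAM siRNA cultures, shaped by replicate number, and short lines are means of 4. Ahcy, Rnmt and Cmtr2 are above 1 in both groups and Cmtr1 and Mat2a below 1, and for Ramac and Mat2a each red point is below the grey point of its own number.

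Whether RAM siRNA changed the polysome level relative to input was tested as the difference between the polysome and the input change over all 16 libraries. The scaling between libraries takes out a change shared by most transcripts, so this test sees only how a gene differs from the others. From the gradients themselves, the study reports a lower ratio of polysomes to monosomes with RAM siRNA. None of the 8 genes passed, 0 of 8, and 0 of the 12805 genes did (0.00%). An unadjusted p under 0.05 was reached by 0 of the 8 and by 100 of all genes (0.781%), and DESeq2 called 0 of the 8 and 1 gene in all. Without any difference, a share near the threshold of 0.05 would be reached. The edgeR fit was therefore conservative, and its lack of calls does not show that the levels were unchanged. For Ramac the polysome to input ratio was 0.623, 0.682, 0.818 and 1.26 in control and 0.311, 0.108, 0.726 and 0.826 in RAM siRNA cultures. It was lower in all 4 treated cultures than in their controls, by the widest margin in replicate 2, and the log2 difference was -0.74 with an interval of -1.85 to 0.37. For Mat2a the ratio was 0.656, 0.782, 0.443 and 0.597 in RAM siRNA cultures, again lower than its control in all 4, with a log2 difference of -0.36 (interval -0.80 to 0.07, unadjusted p = 0.0953). The other 6 genes differed by between -0.12 and 0.04. In this fit the intervals of all 8 include 0, and the narrowest, that of Pcif1, runs from -0.42 to 0.39. With the replicate number as a block within each fraction, 2 of the 8 genes had an unadjusted p under 0.05, as had 637 of all genes (4.97%), and 0 of the 8 and 2 of all genes (0.0156%) passed after adjustment. In that fit Ramac differed by -0.77 (interval -1.38 to -0.17, unadjusted p = 0.0147, adjusted p = 0.955) and Mat2a by -0.39 (interval -0.68 to -0.10, unadjusted p = 0.0112, adjusted p = 0.880). With 1 block for the number over both fractions the unadjusted edgeR p was 0.105 for Ramac and 0.0645 for Mat2a, and with a block for each culture 0.122 and 0.0811. The comparison of control polysomes with control input and those with RAM siRNA share the control libraries.

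Deviations of libraries from their group means, which leave out the difference between RAM siRNA and control, were examined within each fraction. Along their main axis, polysome libraries of replicates 1 and 2 stood apart from those of replicates 3 and 4, and input libraries did not. In polysomes that axis held 70.6% of the variance of these deviations. No label names a batch. Between these pairs of replicates, Ramac in polysome control was at 6.73 against 11.7 CPM and in polysome RAM siRNA at 0.624 against 2.43 CPM. Rnmt went the other way, at 454.5 against 313.9 CPM in control and 626.3 against 374.3 CPM in RAM siRNA. So did Rngtt, Cmtr1, Cmtr2 and Mat2a in both groups. Mat2a was at 356.4 against 312.5 CPM in polysome control and at 339.4 against 251.3 CPM in polysome RAM siRNA. In replicates 1 and 2 alone, and in replicates 3 and 4 alone, 0 of the 8 genes passed in polysomes, as did 0 of all genes, so these tests could show no call. The sign of the RAM siRNA difference in polysomes was the same in both pairs of replicates for all 8 genes.

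Genes that act next to these 8 were described from 4 lists with 43 genes, 41 of them tested (Mat1a and Bhmt had too few reads). In input 2 of the 41 were lower and 1 higher with RAM siRNA without the block, and 11 were lower and 6 higher with it. Of all genes, 12.9% were called without the block and 39.3% with it. Their median log2 difference was -0.04. In polysomes 0 of the 41 passed without the block, and with it 3 were lower and 3 higher, where 14.6% of all genes were called.

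The first list holds 11 genes that bring the capping enzymes to nascent transcripts or act on RNMT, including RNA polymerase II, the TFIIH kinase, the elongation factor DSIF, P-TEFb, Cdk1 and Kpna2. In input 1 of them was lower and 0 higher, where 5.94% of all genes were lower and 6.95% higher. With the block 5 were lower and 0 higher, where 19.0% of all genes were lower and 20.3% higher. The median of the list was -0.09. Mnat1, the assembly factor of the TFIIH kinase, which phosphorylates the polymerase tail that capping enzymes bind, was at 41.5, 35.6, 36.7 and 43.2 CPM in control and at 25.8, 25.4, 27.2 and 35.0 CPM in RAM siRNA input. The groups did not overlap, and Mnat1 fell by 0.47 on the log2 scale (SE 0.11, adjusted p = 0.0139). In polysomes it differed by -0.47 too (adjusted p = 0.255, and 0.00767 with the block). The other subunits of that kinase did not pass in input, with Cdk7 at -0.03 and Ccnh at -0.03. The next largest differences were those of Polr2a (-0.29, adjusted p = 0.293, and 0.0174 with the block) and Cdk1 (-0.24, adjusted p = 0.133, and 1.77e-04 with the block), the kinase known to phosphorylate RNMT. The block also changed the calls of Supt4a (-0.15, adjusted p = 0.247 to 0.0199) and Ccnt1 (-0.11, 0.439 to 0.0436).

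The second list holds 5 genes of other RNA caps, and 0 of them passed in input, with or without the block (median -0.02). The largest differences were those of Bcdin3d (-0.15), Tgs1 (-0.11), which makes the trimethylguanosine cap of small nuclear RNAs, and Larp7 (0.05).

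The third list, of the methionine cycle and the SAM supply, had 1 gene lower and 1 higher in input among 14 tested. Of all genes, 5.94% were lower and 6.95% higher. With the block 3 of the 14 were lower and 4 higher, where 19.0% of all genes were lower and 20.3% higher. The median of the list was 0.02. Cbs, which draws homocysteine out of the cycle towards cysteine, was at 15.9, 16.6, 16.7 and 18.0 CPM in control and at 9.45, 11.8, 9.50 and 13.7 CPM in RAM siRNA input. Every treated library was below every control, and Cbs fell by 0.60 on the log2 scale (SE 0.12, adjusted p = 0.00695). In polysomes it differed by -0.83 (adjusted p = 0.166, and 4.10e-04 with the block). Bhmt2, a methyltransferase that returns a methyl group to homocysteine, held 8, 19, 12 and 12 reads in control and 33, 35, 46 and 26 reads in RAM siRNA input. These groups did not overlap, and Bhmt2 rose by 1.51 on the log2 scale (SE 0.26, adjusted p = 0.00374), at a low level of 0.674 ± 0.216 CPM in control and 1.93 ± 0.416 CPM with RAM siRNA (SD, n = 4 each). Input control libraries, at 0.421 to 0.948 CPM, were all under the 1 CPM of the filter. Bhmt2 was thus tested mainly through the RAM siRNA libraries, where it was higher, and that filter favours its call and the gap between groups. Its polysome difference was 1.46 (adjusted p = 0.0824, and 0.00133 with the block). Adk, which removes the adenosine that AHCY releases, differed by 0.28 in input (adjusted p = 0.182, and 0.00331 with the block). The block also changed the input calls of Mtrr (-0.23, adjusted p = 0.0649 to 0.00153), Mthfd1 (-0.15, 0.273 to 0.00662), Shmt2 (0.19, 0.115 to 0.00125) and Slc25a26 (0.27, 0.145 to 0.0145), and in polysomes those of Mtrr (-0.55, 0.204 to 0.00273) and Gnmt (0.60, 0.624 to 0.0429).

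The fourth list, of enzymes that methylate adenosine inside mRNA or remove that mark, had 0 of 11 genes past the threshold in input without the block, and 3 lower and 2 higher with it, where 39.3% of all genes were called (median -0.10). The largest differences were those of Cbll1 (-0.27, adjusted p = 0.0573, and 0.00433 with the block), Zc3h13 (0.20, adjusted p = 0.700, and 0.0291 with the block) and Mettl3 (0.18, adjusted p = 0.177, and 0.0399 with the block), the catalytic subunit. The other 2 calls with the block were Rbm15 (-0.15, adjusted p = 0.284 to 0.00629) and Mettl14 (-0.15, 0.195 to 0.0450). In polysomes Zc3h13 differed by 0.58 (adjusted p = 0.933, and 0.0256 with the block). Between control polysomes and control input, 5 of the 11 genes were lower and 0 higher (5 and 1 with the block, median -0.17), where 34.3% of all genes were lower and 33.1% higher (72.3% called with the block, 37.2% lower and 35.1% higher). Among the lower were Rbm15b (-1.71), Rbm15 (-1.59) and Alkbh5 (-0.84). In the same comparison and against the same shares, 2 of 11 genes of the capping recruitment list were lower and 6 higher, with Ccnt1 at -1.41 and Mnat1 at 1.28, and 2 of 14 of the methionine cycle list were lower and 9 higher, with Shmt2 at 1.03.

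**Figure D5:**
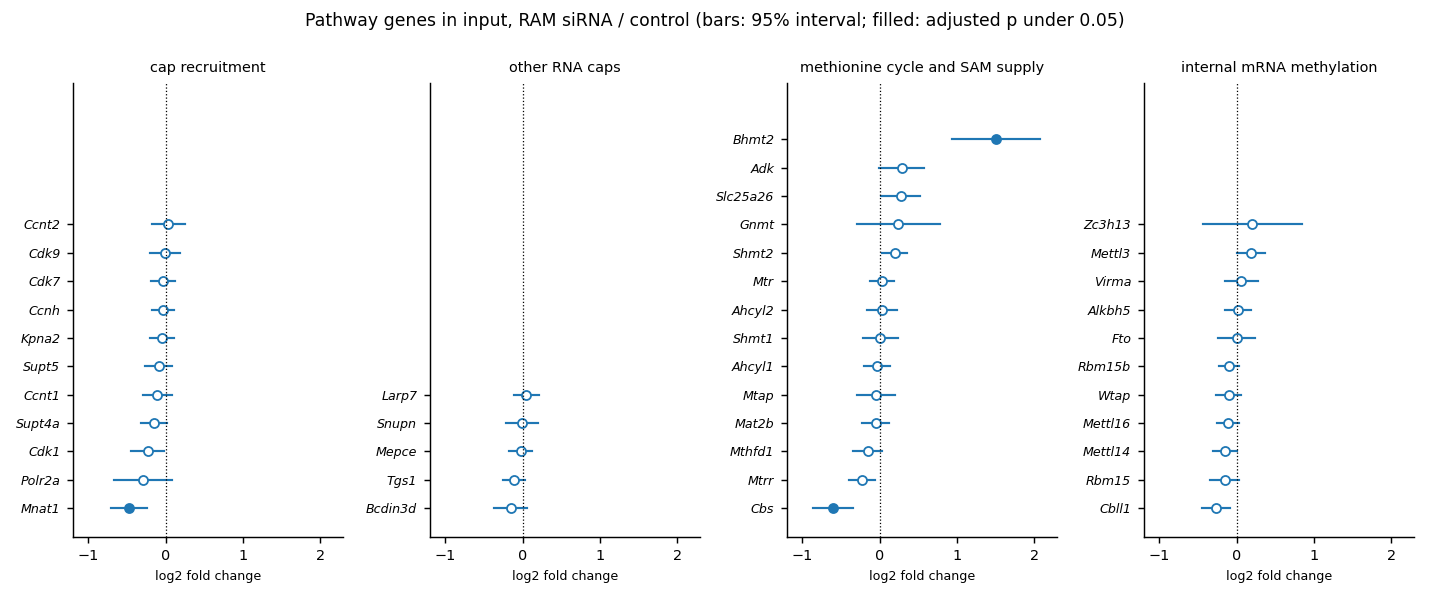
Log2 fold change with RAM siRNA in input, without the replicate block, for the 41 genes of the 4 lists, with 95% intervals as bars and filled points where the adjusted p was under 0.05. Mnat1 and Cbs are lower and Bhmt2 higher past the threshold, and the other 38 points lie between -0.29 and 0.28.

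The genes whose levels followed each of the 8 most closely over the 16 libraries were found by Pearson's r of log2 CPM among the 9129 genes that averaged 10 CPM or more, as a description without a test, since libraries share fraction, siRNA and replicate. For Ramac these were Ppm1a (r = 0.965), Zfp68 (0.940) and Akt1 (0.936). The highest r was with Ptprn for Rnmt (0.984), Cep89 for Rngtt (0.950), Pik3r3 for Cmtr1 (0.971), Fbxo3 for Cmtr2 (0.979), Map3k11 for Pcif1 (0.884) and Tardbp for Mat2a (0.969). For Ahcy it was Gm4737 (0.993), the retrocopy that shares most of its sequence.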

How the data were processed

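Sequencing libraries were prepared, after removal of ribosomal RNA, with a kit that keeps the strand. Per the labels, the authors' notes name bcl2fastq, STAR 2.5.1b, HTSeq and edgeR, with build mm10 (GRCm38), and the authors deposited raw counts per gene without normalization. How htseq-count treated strand and overlapping genes, and which annotation it used, is not given in the sources used here. The table has 46983 genes, of which 46488 matched a name in GENCODE M21 (GRCm38), and 0 columns of other samples.

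Genes that reached 1 CPM in 10 or more of the 16 libraries were tested on their counts by edgeR 4.0.16 in R 4.3.3, using its quasi-likelihood test (TMM scaling, Benjamini-Hochberg adjustment over the 12805 genes tested, threshold 0.05). RAM siRNA and control were compared within each fraction on 8 libraries, their difference between fractions on all 16, and polysomes with input in control cells on 8. Adjusted p-values in the text come from this test unless DESeq2 is named. CPM values use TMM over all 16 libraries, and levels per kb use the merged exon length. Intervals of log2 differences are 95% intervals of the same fit, and exact Poisson intervals cover counting error only. Only the fit of RAM siRNA against control in input, without the block, was tried on simulated counts, which held no replicate effect. The other fits and the ratio were not simulated.

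The labels number replicates 1 to 4 in each group, and the study describes its replicates as biological ones from independent experiments. No label says whether a number names the same experiment in every group. Same-numbered libraries deviated from their group means together, with correlations of 0.295 to 0.601 in input, 0.520 to 0.879 in polysomes and 0.231 to 0.633 across fractions. The numbers were therefore taken as pairs, from the data and not from a label, but only where the block was used. The main fit holds no term for the replicate, so its calls, intervals and results without 1 library leave this pairing out. A gene that passed only with the block is therefore not shown to be unchanged. Values with the replicate number as a block are given where they change the call of one of the 8 genes or of a list gene in RAM siRNA against control.

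Exon windows of 75 bases were compared with the exons of all genes. The 8 genes, the 4 lists and the motifs were chosen with earlier results of these data known, so no p-value is adjusted over a list alone. Genes named are the 8, list genes past the threshold in a comparison or among the 3 largest differences of their list in input, and those most like each of the 8. One gene of the lists is not reported here. Copies, overlapping genes and list genes called only with the block were named after their values were seen. Alternatives were DESeq2 1.42.0, limma-voom (limma 3.58.1), RLE and library-size scaling, no filter on low counts, the replicate block, an adjusted p under 0.01, all libraries in one fit, replicates 1 and 2 or 3 and 4 alone, and each library left out. Summing a gene with its copy was chosen after seeing the data.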

Additional observations from a re-analysis of the deposited data

Results flagged for a closer look

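In 2 of the 32 sets of 4 libraries (8 genes in 4 groups), 1 library stood apart from the other 3 by Dixon's ratio, the gap to the nearest library divided by the whole range (the ratios of both were above the 95% critical value for 4 samples). Chance gives about 1 in 20 such sets. In input RAM siRNA, replicate 2 had the lowest Ramac level, at 2.65 CPM against 3.09 to 3.15 CPM in the others (ratio 0.885). In input control, replicate 3 had the lowest Rngtt level, at 29.7 CPM against 37.6 to 38.3 CPM in the others (ratio 0.923).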

How the results depend on the processing

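In input, the number of the 8 genes called went from 4 to between 2 and 4 when 1 library was left out, to 1 at an adjusted p under 0.01 or with all libraries in one fit, and to 0 in replicates 3 and 4 alone. Pathway genes called in input went from 3 to between 2 and 6 without 1 library, 5 with DESeq2, 17 with the replicate block, 1 in one fit, 6 in replicates 1 and 2 and 0 in replicates 3 and 4. All genes called in input went from 1651 to between 913 and 2506 without 1 library, 5028 with the replicate block, 619 at 0.01, 186 in one fit, 2629 in replicates 1 and 2 and 0 in replicates 3 and 4. In polysomes, of the 8 genes 1 was called by DESeq2, without the filter or in one fit, and 3 with the replicate block. Of the pathway genes 4 were called by DESeq2, 6 with the block, 4 in one fit and 0 or 1 without 1 library. Of all genes 300 were called by DESeq2, 39 without the filter, 1875 with the block, 453 in one fit, 0 at 0.01 or in either pair of replicates, and between 0 and 48 without 1 library. For the polysome to input change with RAM siRNA, DESeq2 called 1 gene in all, and the replicate block within each fraction 2. Under the replicate block the Rnmt to Ramac ratio differed by the same 2.21 in input and 3.31 in polysomes, with an exact permutation p of 0.125 by design. Without 1 library the difference was 2.08 to 2.33 in input and 2.50 to 3.90 in polysomes.

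Some log2 differences changed sign. In input, Ahcy was at 0.010 in replicates 3 and 4. For the polysome to input change, Pcif1 was at 0.026 with DESeq2 and with RLE, 0.0040 with library-size scaling, 0.061 without the filter, 0.12 in replicates 3 and 4, and between -0.088 and 0.061 without 1 library. Rnmt was at -0.0098 with limma-voom, -0.011 with the replicate block within fractions or by culture, -0.072 in replicates 3 and 4, and between -0.15 and 0.17 without 1 library. In replicates 1 and 2, Cmtr1 was at -0.012, Cmtr2 at 0.088 and Ahcy at 0.071, and without 1 library their ranges were -0.14 to 0.29, -0.20 to 0.028 and -0.19 to 0.11, and that of Rngtt was -0.27 to 0.0025. For polysomes against control input, Rngtt was at -0.022 with library-size scaling, -0.10 in replicates 3 and 4, and between -0.016 and 0.19 without 1 library, and Ramac, at -0.26 with all replicates, was at 0.057 in replicates 3 and 4. Except for settings that test fewer samples, pool the spread of both fractions or lower the threshold, the cause was not tested. At 5 to 256 reads per library in polysomes, Ramac was limited by counting as well as by the spread between replicates, and Cmtr1, at 15 to 145 reads, was limited in the same way. The sequence that Cmtr1, Ahcy and Ramac share with other genes limits their levels at any depth.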
